A study of Mus musculus with 5 samples.

Results

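The genes described here are 35 collagens and other components of the interstitial extracellular matrix, followed in RNA labelled as murine lung from A/J mice. A probe set (the oligonucleotides that together read a transcript) stood for a member if the platform annotation gave it exactly 1 gene symbol and that symbol, or an older synonym of it, was a listed member. Where a gene had several such probe sets, its brightest on average over the 5 arrays (log2 scale) was taken. This gave values for 31 of the 35 members, out of 8251 genes measured in the same way, and 30 of the 31 passed the filter on dim probe sets, out of 5980. Fbn1, Fbln5, Spp1 and Thbs1 had no probe set with a single symbol and were not analysed here.

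The mice received saline (2 arrays) or IL-13, a T helper 2 cytokine (3 arrays), through the trachea. Saline arrays are numbered 6 and 48 in their titles, and those of IL-13 6, 18 and 48. No unit is given with these numbers, so they are used here only as names (saline 6, saline 48, IL-13 6, IL-13 18, IL-13 48). Each combination of treatment and number was a single array, and the labels give neither dose, age nor how many animals an array stands for, so a p-value here reflects only how far single arrays lie apart, which may be technical.

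The interstitial matrix is built mainly by fibroblasts and smooth muscle cells. Fibrillar collagens are wound as triple helices in the endoplasmic reticulum with the help of chaperones, trimmed after secretion and cross-linked by lysyl oxidases, while elastin is laid on a scaffold of microfibrils and fibulins. Small proteoglycans set the diameter of collagen fibrils, and matricellular proteins such as periostin and tenascin C tune how cells attach to them. In the airway wall, matrix deposition beneath the epithelium is a known feature of asthma, and periostin is known as a gene induced by IL-13 in epithelial cells and fibroblasts.

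The arrays did not hold the same mixture of tissue, and this bears on every value below. Scgb1a1, the secretory protein of club cells, was bright throughout (22024 to 31024 in deposited intensity units). Sftpc, the surfactant protein that defines alveolar type II cells, was 2615 and 194.3 in the saline arrays (in the order 6, 48, here and below) and 257.2, 17178 and 300.5 in the IL-13 arrays (6, 18, 48). Sftpb, another surfactant protein, was between 67.59 and 231.8 on 4 arrays and 2114 on IL-13 18, so both surfactant genes were dim on 3 of the 5 arrays. Ager, a marker of alveolar type I cells, read 1872 to 2128 on 4 arrays and 4928 on IL-13 18. Thyroglobulin (Tg), a protein of the thyroid gland, read 13170 to 25516 on all 5 arrays, and Acan, the aggrecan of cartilage, 948.4 to 3278. Saline 6 stood apart: the 10 measured salivary gland genes summed to 113932 there and to between 1786 and 2492 on the other arrays, and the 10 heart muscle genes to 35384 against 12477 to 25669. IL-13 18 also carried heart transcripts, with Myl7, an atrial myosin light chain, at 7548 on saline 6, 3323 on IL-13 18 and 129.9 to 224.8 on the other 3 arrays. Fat genes (8 measured) summed to 56706 on saline 6 and to 24591 to 31361 elsewhere. Thymus and T cell genes (11 measured) summed to 13949 and 20241 with saline and to 4546, 9911 and 3751 with IL-13. Of the genes measured in these lists, 0 were at or under the floor of 55.3 on all 5 arrays. The part of these differences in the results on matrix genes was not tested. Results on the members as a set, and on many single members, are given below with and without saline 6. Lists of related genes are given also for each pair of equal title number, and the pair at 48 does not hold saline 6.

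**Figure D1:**
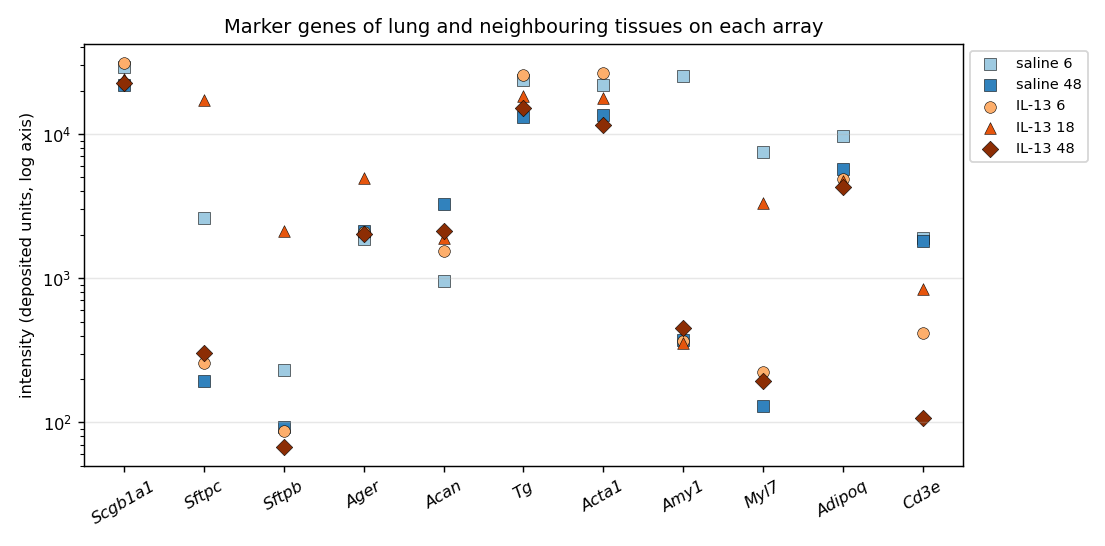
Deposited intensity (log axis) of 11 marker genes on the 5 arrays, 1 point per array. Sftpc reaches 17178 on IL-13 18 and stays at or below 300.5 on 3 arrays, and Amy1, a salivary gland gene, reads 25156 on saline 6 and at most 447.6 elsewhere.

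Most matrix genes read somewhat higher on the IL-13 arrays than on the saline arrays, and none passed the test across all probe sets. Of the 30 members that passed the filter, 27 had a higher mean log2 value after IL-13, where 54.2% of all tested genes did. The median log2 difference was 0.32 over the members and 0.03 over all tested genes, and single members ranged from -0.13 (Mfap5) to 0.85 (Postn). In 15 of the 30 members the lowest of the 3 IL-13 arrays exceeded the higher saline array, against 14% of all tested genes, and in 0 of 30 all 3 were lower than both, against 11.4%. In limma's fit with Benjamini-Hochberg adjustment, 0 members passed an adjusted p of 0.05 (lowest 0.274), and 0.0128% of probe sets passed as higher and 0.0384% as lower. At an unadjusted p under 0.05, limma gave 8 members as higher and 0 as lower, against 4.52% and 3.83% of genes. In RNA of a whole tissue, more cells of a type and more RNA per cell cannot be told apart.

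Leaving out saline 6, the array with salivary gland transcripts, gave a median of 0.26 for the members and -0.01 for all tested genes, and 23 of 30 members had a higher mean. All IL-13 arrays then lay above the remaining saline array in 18 members (26.5% of genes) and below it in 4 (27.3% of genes), which were Col18a1, Lox, Sparc and Tnc. Leaving out IL-13 18, the array with the brightest surfactant genes, gave a median of 0.30, with 25 of 30 higher. Thus fewer members had a higher mean without saline 6 (23, against 27 with all arrays). More had all IL-13 arrays above saline (18, against 15), where only the remaining saline array had to be exceeded. The direction of the median was the same without saline 6 and without IL-13 18.

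**Figure D2:**
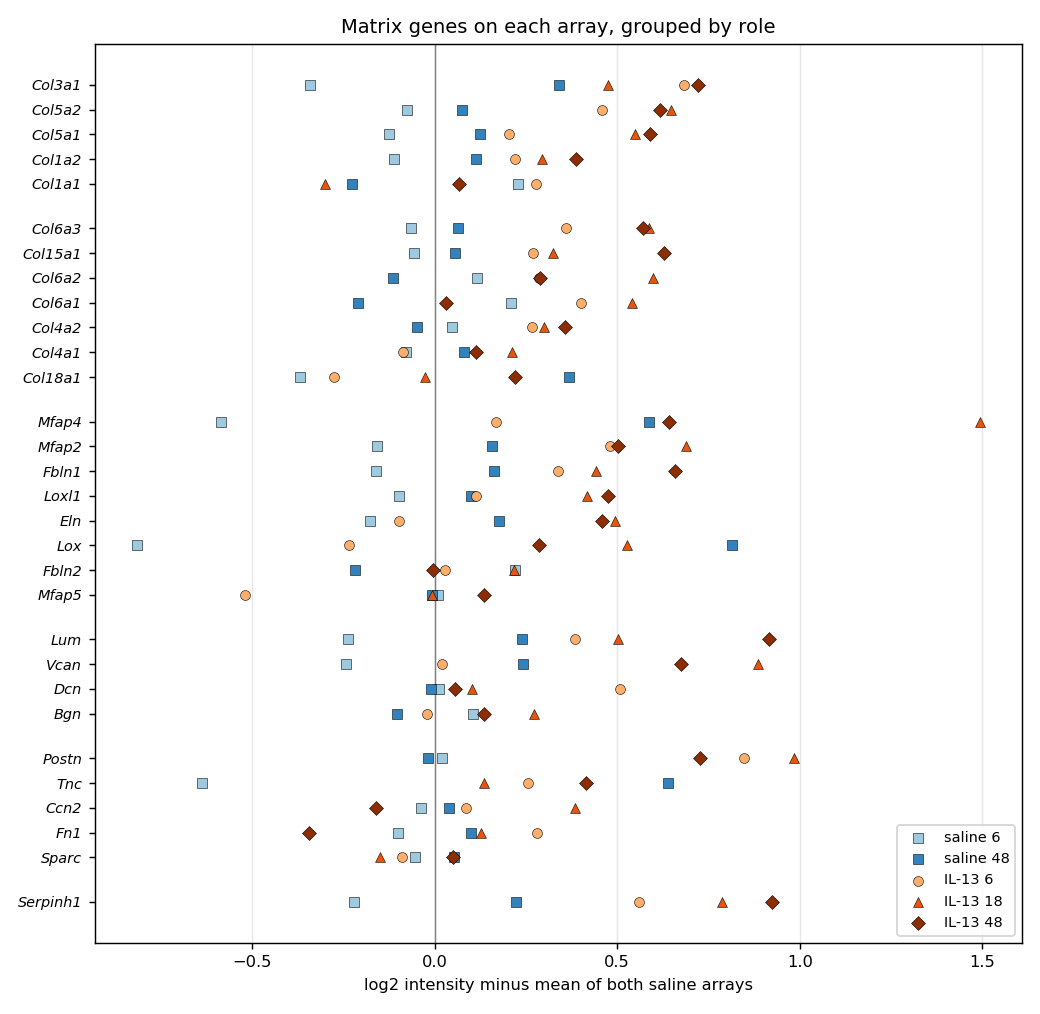
Log2 intensity of the 30 matrix genes that passed the filter, each minus the mean of its 2 saline arrays, grouped by role. Squares are saline arrays and the other symbols IL-13 arrays, 1 point per array, and for 15 genes all 3 IL-13 points lie to the right of both squares.

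Postn, which encodes periostin, a matricellular protein that binds collagen and integrins, gave the largest difference. It read 3715 and 3623 in the saline arrays, against 6600, 7259 and 6070 in the IL-13 arrays. The saline arrays were nearly equal and all 3 IL-13 arrays lay well above them. The log2 difference was 0.85 (SE 0.17, n = 3 against 2, limma adjusted p 0.274), or 1.8-fold. It was 0.87 without saline 6 and 0.79 without IL-13 18.

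Serpinh1 encodes the collagen chaperone HSP47, which binds the triple helix in the endoplasmic reticulum. Its values were 2409 and 3278 in the saline arrays, against 4141, 4853 and 5339 in the IL-13 arrays. The lowest IL-13 array was thus above the higher saline array. The log2 difference was 0.76 (SE 0.21, adjusted p 0.412), and 0.54 without saline 6.

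The 250 bases before the gene start are shown for 4 members and for Col18a1, as a description of their sequence. The 4 had the largest difference among tested members with an entry in the RefSeq promoter table and no overlap of arrays. Col18a1 was the tested member with an entry whose difference was nearest 0. The part of these sequences in the differences between arrays was not tested. The build is GRCm38.p6. Postn lies at chr3:54359017-54359266 (plus strand), Serpinh1 at chr7:99353240-99353489 (minus strand), Col3a1 at chr1:45311288-45311537 (plus), Mfap2 at chr4:141010431-141010680 (plus) and Col18a1 at chr10:77166531-77166780 (minus). Each run is 5′ to 3′ on the strand of the gene, and capitals mark matches on either strand to the motifs named after it.
Postn: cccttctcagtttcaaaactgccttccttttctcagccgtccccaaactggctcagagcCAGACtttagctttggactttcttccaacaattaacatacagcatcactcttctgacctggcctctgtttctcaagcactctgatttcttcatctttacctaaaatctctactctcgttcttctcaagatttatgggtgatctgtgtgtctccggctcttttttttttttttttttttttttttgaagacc
Serpinh1: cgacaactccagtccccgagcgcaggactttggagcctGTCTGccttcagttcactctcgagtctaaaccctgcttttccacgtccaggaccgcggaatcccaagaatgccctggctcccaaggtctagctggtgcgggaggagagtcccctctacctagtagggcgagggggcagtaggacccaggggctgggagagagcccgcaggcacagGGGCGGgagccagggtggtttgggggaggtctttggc
Col3a1: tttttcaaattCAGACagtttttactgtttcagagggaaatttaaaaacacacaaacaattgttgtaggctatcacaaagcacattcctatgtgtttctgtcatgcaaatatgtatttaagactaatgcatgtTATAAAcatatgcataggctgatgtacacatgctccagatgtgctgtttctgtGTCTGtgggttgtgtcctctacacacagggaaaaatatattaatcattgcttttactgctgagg
Mfap2: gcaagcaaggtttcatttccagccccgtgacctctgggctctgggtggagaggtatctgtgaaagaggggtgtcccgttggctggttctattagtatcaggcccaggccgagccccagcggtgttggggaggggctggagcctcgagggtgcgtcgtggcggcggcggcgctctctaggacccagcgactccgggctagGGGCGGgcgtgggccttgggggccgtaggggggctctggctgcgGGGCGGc
Col18a1: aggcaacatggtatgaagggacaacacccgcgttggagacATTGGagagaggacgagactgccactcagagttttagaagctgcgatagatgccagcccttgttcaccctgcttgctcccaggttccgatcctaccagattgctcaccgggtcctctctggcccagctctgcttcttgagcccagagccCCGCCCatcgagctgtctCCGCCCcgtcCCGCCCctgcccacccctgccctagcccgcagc

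Motifs were searched on both strands. The Smad box, CAGAC, is bound by Smad proteins, which carry TGF-beta signals. The TATA box was searched as TATAAA, the CCAAT box by its own letters and the GC box as GGGCGG. The AP-1 motif, TGANTCA, and the motif of STAT6, the factor downstream of IL-13, TTCNNNNGAA, read the same on both strands. CAGAC or its complement stood in the promoters of Postn, Serpinh1 and Col3a1 and not in those of Mfap2 and Col18a1. GGGCGG or its complement stood in those of Serpinh1, Mfap2 and Col18a1. Of the 23 members with an entry, 10 held CAGAC, a share of 43.5%, and of all 27025 genes with an entry 42.1% did. Among the 11 tested members with an entry whose arrays did not overlap, 8 held CAGAC, 6 the GC box, 2 the CCAAT box, 1 the TATA box and 0 the AP-1 or STAT6 motif. These 11 were picked by their own values on these arrays, and their motif counts were not tested. GGGCGG stood in 14 of the 23 (60.9%, against 32.9% of all genes) and CCAAT in 7 (30.4%, against 34.5%). TATAAA stood in 4 (17.4%, against 13%). The AP-1 motif was in 1 promoter, that of Col6a1, and the STAT6 motif in 1, that of Bgn (4.35% each, against 6.87% and 5.86%). A match describes these letters and is not a binding site.

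Fibrillar collagens, which form the banded fibrils of the airway wall, all had a higher mean (5 of 5, median 0.45), and 4 of them had no overlap of arrays. Col3a1, the chain of type III collagen, read 5199 and 8349 in the saline arrays, against 10586, 9160 and 10870 in the IL-13 arrays. Every IL-13 array was above saline 48, which itself was far above saline 6. The log2 difference was 0.63 (SE 0.24, adjusted p 0.531) and 0.29 without saline 6. Its other 2 probe sets also had no overlap, with differences of 0.82 and 0.38.

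Col5a2, a chain of the type V collagen that starts fibril assembly, read 2302 and 2557 in the saline arrays, against 3331, 3800 and 3724 in the IL-13 arrays. Here the saline arrays lay close together, and the difference of 0.57 (SE 0.17, adjusted p 0.432) was 0.50 without saline 6. Its partner chain Col5a1 read 1566 and 1864 in the saline arrays, against 1967, 2503 and 2574 in the IL-13 arrays (0.45, SE 0.20, adjusted p 0.571), and its second probe set gave 0.49. Both chains of type V collagen therefore read higher on all 3 IL-13 arrays.

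The chains of type I collagen, the main collagen of the body, did not read alike. Col1a2 gave 6153 and 7195 in the saline arrays, against 7751, 8167 and 8714 in the IL-13 arrays (0.30, SE 0.17, adjusted p 0.655; 0.19 without saline 6), without overlap. Col1a1 gave 13729 and 10033 in the saline arrays, against 14222, 9543 and 12288 in the IL-13 arrays (0.01, SE 0.24, adjusted p 0.99), with the groups interleaved. A second, dimmer probe set of Col1a1 read 5196 and 5342 in the saline arrays, against 5902, 7470 and 6777 in the IL-13 arrays, a difference of 0.34 with no overlap. The probe sets of this gene thus disagreed about its change.

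Among basement membrane and microfibrillar collagens 6 of 7 had a higher mean (median 0.32), and 4 had no overlap. Type VI collagen forms beaded microfibrils next to cells. Its Col6a3 chain read 4241 and 4640 in the saline arrays, against 5696, 6673 and 6593 in the IL-13 arrays (0.51, SE 0.17, adjusted p 0.491; 0.44 without saline 6). Col6a2 read 3680 and 3139 in the saline arrays, against 4143, 5146 and 4149 in the IL-13 arrays (0.39, SE 0.19, adjusted p 0.598). Col6a1 read 5674 and 4251 in the saline arrays, against 6489, 7150 and 5016 in the IL-13 arrays (0.32, SE 0.23, adjusted p 0.721; 0.53 without saline 6 and 0.11 without saline 48), with IL-13 48 below saline 6. All 3 chains of type VI collagen had differences of the same sign, and a second probe set of Col6a1 gave 0.85.

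Of the type IV collagen chains, which form the network of basement membranes, Col4a2 read 3926 and 3677 in the saline arrays, against 4570, 4678 and 4864 in the IL-13 arrays (0.31, SE 0.16, adjusted p 0.621), without overlap. Col4a1, the chain it pairs with, read 5537 and 6192 in the saline arrays, against 5514, 6789 and 6342 in the IL-13 arrays (0.08, SE 0.18), and its groups overlapped. The basement membrane zone collagen Col15a1 read 1464 and 1585 in the saline arrays, against 1836, 1909 and 2357 in the IL-13 arrays (0.41, SE 0.19, adjusted p 0.577). Col18a1, the source of endostatin, read 923 and 1539 in the saline arrays, against 985.3, 1171 and 1390 in the IL-13 arrays (-0.03, SE 0.27), all IL-13 arrays lying between the saline arrays.

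Elastic fibre genes had a higher mean in 7 of 8 cases (median 0.31), and 3 had no overlap. Mfap2, a microfibril protein, read 464.1 and 577.8 in the saline arrays, against 721.8, 835.1 and 733.1 in the IL-13 arrays (0.56, SE 0.18, adjusted p 0.481; 0.40 without saline 6). Fbln1, the fibulin that binds fibronectin and elastin, read 1579 and 1979 in the saline arrays, against 2236, 2401 and 2791 in the IL-13 arrays (0.48, SE 0.19, adjusted p 0.531; 0.32 without saline 6). In both genes the 3 IL-13 arrays lay above the higher saline array. A probe set of Fbln1 with a plain ending gave 0.41 with no overlap and another 0.21 with overlap.

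The cross-linking enzymes of the lysyl oxidase family were dim and differed from each other. Loxl1, needed for elastin renewal, read 260.4 and 298.8 in the saline arrays, against 301.9, 372.3 and 388 in the IL-13 arrays (0.34, SE 0.19, adjusted p 0.655), with IL-13 6 barely above saline 48. Lox, which cross-links both collagen and elastin, read 199.7 and 619.3 in the saline arrays, against 298.6, 507.4 and 429.2 in the IL-13 arrays. The saline arrays enclosed all IL-13 arrays, so the difference of 0.19 (SE 0.48, adjusted p 0.924) turned to -0.62 without saline 6 and was 1.01 without saline 48.

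Mfap4, a microfibril-associated protein, read 389.7 and 879.9 in the saline arrays, against 657.6, 1651 and 913.5 in the IL-13 arrays (0.77, SE 0.48, adjusted p 0.681), from an _f_at probe set, an ending that marks probes that related transcripts may share. IL-13 18, the array on which Sftpc read 17178, held the highest value by a wide margin. The difference was 0.40 without IL-13 18 and 0.18 without saline 6. Eln, which encodes elastin, read 5375 and 6870 in the saline arrays, against 5682, 8564 and 8358 in the IL-13 arrays (0.29, SE 0.25, adjusted p 0.766; 0.11 without saline 6). Its groups overlapped through IL-13 6. The remaining members of this role were Fbln2 (0.08, SE 0.20) and Mfap5 (-0.13, SE 0.23), both with overlapping arrays.

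Proteoglycans had a higher mean in 4 of 4 cases (median 0.37). Lum encodes lumican, a small leucine-rich proteoglycan of collagen fibrils, and read 2855 and 3979 in the saline arrays, against 4402, 4776 and 6362 in the IL-13 arrays (0.60, SE 0.24, adjusted p 0.531; 0.36 without saline 6). IL-13 48 was the highest array and saline 6 the lowest. Dcn, the related decorin, read 12249 and 12076 in the saline arrays, against 17295, 13061 and 12636 in the IL-13 arrays (0.22, SE 0.20, adjusted p 0.775; 0.08 without IL-13 6), so IL-13 6 alone stood far above saline. Vcan, the large proteoglycan versican, read 423.3 and 592.7 in the saline arrays, against 507.8, 926.2 and 800.4 in the IL-13 arrays (0.53, SE 0.30, adjusted p 0.659; 0.28 without saline 6), with IL-13 6 between the saline arrays. Bgn, biglycan, gave 0.13 (SE 0.18) with overlap, and its second probe set 0.39 without.

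The matricellular and adhesive glycoproteins, Postn included, had a median of 0.10 (5 tested, 4 with a higher mean), and Postn was the 1 without overlap of arrays. Tnc, tenascin C, a protein of remodelling tissue, read 409.8 and 993.8 in the saline arrays, against 762.1, 702 and 851 in the IL-13 arrays. All IL-13 arrays lay between the saline arrays, and the difference of 0.27 (SE 0.37, adjusted p 0.857) turned to -0.37 without saline 6. Fn1, fibronectin, read 1419 and 1632 in the saline arrays, against 1849, 1662 and 1200 in the IL-13 arrays (0.02, SE 0.23), so that IL-13 48 was the lowest array and IL-13 6 the highest. Ccn2, connective tissue growth factor, a target of TGF-beta, read 1502 and 1585 in the saline arrays, against 1639, 2013 and 1381 in the IL-13 arrays (0.10, SE 0.21). Sparc, a collagen-binding glycoprotein, lay between 9503 and 10947 on all 5 arrays (-0.06, SE 0.17).

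Ccn1, also called Cyr61, a matricellular gene that responds to stretch, did not pass the filter and was not tested. It read 163 and 102.5 in the saline arrays, against 196.6, 206.9 and 265.4 in the IL-13 arrays, with no overlap. These values lie near the filter intensity of 210.

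**Figure D3:**
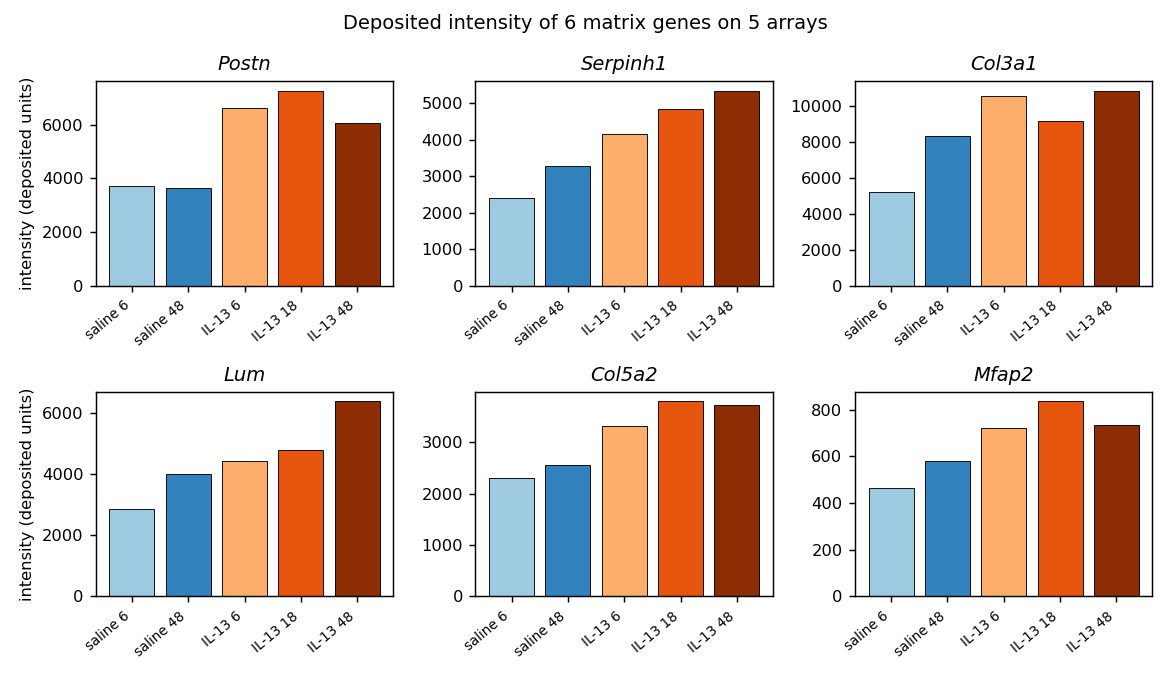
Deposited intensity (linear axis from 0) of the 6 tested members with the largest log2 difference among those without overlap of arrays, 1 bar per array. Postn reads 3623 and 3715 on the saline arrays and 6070 to 7259 on the IL-13 arrays, and Col3a1 shows a saline 6 value (5199) well below saline 48 (8349).

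Probe sets of the same gene are different oligonucleotides measured on the same RNA. Of 19 further probe sets of the members, 13 passed the filter, and they belong to 10 genes. The mean after IL-13 was higher in 11 and lower in 2 of them, and 7 had all IL-13 arrays above both saline arrays. The 2 with a lower mean belong to Col18a1 (-0.41) and Mfap5 (-0.29).

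The pairs of equal title number are comparisons of 1 array with 1, without replicates, and share no array. In the pair at 6 the median log2 difference of the members was 0.33 (0.04 over all tested genes), and in the pair at 48 it was 0.29 (0.01). At 6, 25 of 30 members were above 0, against 54.3% of genes, and 7 were at least 1.5-fold higher, against 12.4%. At least 1.5-fold lower were 0 members, against 9.13%. At 48, 24 of 30 were above 0, against 51.1%, with 3 at least 1.5-fold higher (5.67% of genes) and 0 at least 1.5-fold lower (5.54%). The 3 members at least 1.5-fold higher in both pairs were Postn (1.78-fold at 6 and 1.68-fold at 48), Serpinh1 (1.72-fold and 1.63-fold) and Lum (1.54-fold and 1.6-fold). Of the 30 members, 20 were higher in both pairs, 1 (Sparc) was lower or level in both, and 9 had opposite signs.

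**Figure D4:**
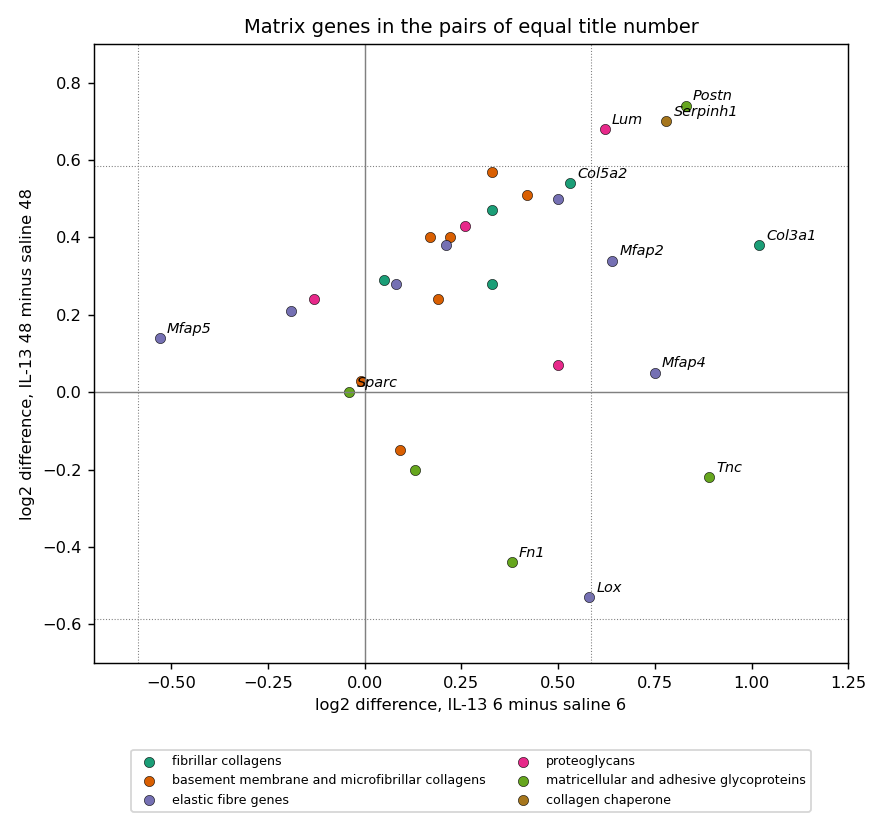
Log2 difference of each of 30 matrix genes in the pair at title number 48 against that at 6, coloured by role, with dotted lines at 1.5-fold. Postn, Serpinh1 and Lum lie beyond the dotted line on both axes, and Lox, Tnc and Fn1 lie above 0 at 6 and below 0 at 48.

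Of the 30 tested members, Col3a1 was at least 2-fold apart in a pair (2.03-fold at 6), as was the untested Ccn1 (2.59-fold at 48). Tnc was 1.86-fold higher at 6 and differed by -0.22 on the log2 scale at 48. Lox differed by 0.58 at 6 and by -0.53 at 48, and Mfap4 by 0.75 and 0.05. In Col3a1, Tnc, Lox and Mfap4 saline 6 was the lowest array. The difference between pairs was not tested, because each holds 1 array per treatment.

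Each IL-13 array was also set against both saline arrays, which these comparisons share with the fit above. IL-13 6 lay above both for 19 of 30 members (33.2% of tested genes), IL-13 18 for 23 (34.8%) and IL-13 48 for 21 (35.8%). IL-13 18, which has no saline array of its own number, differed from the mean of both by a median of 0.43 over the members and 0.03 over all tested genes. At least 1.5-fold higher there were 8 of 30 members, against 8.48% of genes, led by Mfap4 (2.82-fold, from its _f_at probe set only), Postn (1.98-fold) and Vcan (1.85-fold). Mfap4, Postn and Vcan were each highest on IL-13 18. For Mfap4 and Vcan, IL-13 6 lay between the saline arrays, while for Postn all 3 IL-13 arrays lay above both.

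The saline arrays differed from each other in the same genes. Of the 30 members, 21 were higher on saline 48 than on saline 6 (55.7% of genes), with a median log2 difference of 0.18 (0.06 over all tested genes). At least 1.5-fold higher on saline 48 were 5 members (12.5% of genes): Lox (1.63 on the log2 scale), Tnc (1.28), Mfap4 (1.17), Col18a1 (0.74) and Col3a1 (0.68). None of the 30 was at least 1.5-fold lower, against 8.43%. Saline 6 was the lowest of the 5 arrays for 17 members, against 32.4% of genes. The spread between saline arrays in these 5 genes was as large as or larger than their difference between treatments.

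**Figure D5:**
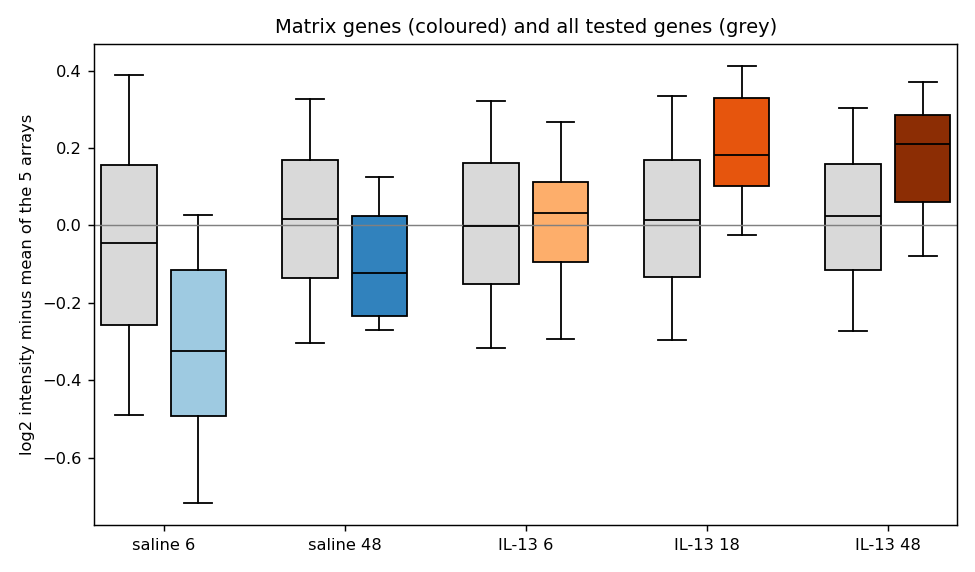
Log2 intensity minus the mean of the 5 arrays for 30 matrix genes (coloured) beside all 5980 tested genes (grey). Boxes span the quartiles, whiskers the 10th to 90th percentile, and the matrix genes' median moves from -0.32 on saline 6 and -0.12 on saline 48 to 0.03, 0.18 and 0.21 on IL-13 6, 18 and 48.

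Related genes were read from lists of the pathway, by their counts and medians. None of the genes in these lists passed the limma test. Collagen processing enzymes, which hydroxylate, glycosylate and trim procollagen, had a median of 0.15 (10 tested, 6 higher and 4 lower, 3 without overlap). Their median was 0.32 in the pair at 6 and 0.11 in the pair at 48. Colgalt1, a galactosyltransferase for collagen, differed by 0.42 (SE 0.19), the prolyl isomerase gene Ppib by 0.33 (SE 0.18), and P4hb, protein disulfide isomerase, by -0.33 (SE 0.37). Laminins and other basement membrane genes had a median of 0.23 (13 tested, 10 higher and 3 lower), with 0.33 in the pair at 6 and 0.12 in the pair at 48. The linker protein gene Nid1 read 92.36 and 198.9 in the saline arrays, against 214.6, 248.8 and 370.9 in the IL-13 arrays (1.00, SE 0.38, adjusted p 0.531). Both saline values of Nid1 were under the filter intensity of 210, so Nid1 entered the test through IL-13 arrays alone. Col4a5 differed by 0.62 (SE 0.24) and Lamb2 by 0.32 (SE 0.24).

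TGF-beta ligands, receptors and targets, the main inducers of matrix genes and their readout, had a median of 0.08 (16 tested, 11 higher and 5 lower). It was 0.08 in the pair at 6 and -0.16 in the pair at 48. Tgfb1 read 568.2 and 438.1 in the saline arrays, against 248.8, 82.19 and 154.6 in the IL-13 arrays (-1.77, SE 0.45, adjusted p 0.361), opposite in sign to most matrix genes. The latent TGF-beta binding protein gene Ltbp3 differed by 0.64 (SE 0.21) and Smad4 by -0.38 (SE 0.33). The summed thymus and T cell transcripts, given above, were also lower on each IL-13 array than on both saline arrays, and their part in the value of Tgfb1 was not tested.

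Integrins and collagen receptors had a median of 0.16 (10 tested, 8 higher and 2 lower). The pairs differed here: the median was 0.54 in the pair at 6 (9 higher) and -0.15 in the pair at 48 (3 higher). Ddr2, a receptor tyrosine kinase that fibrillar collagen activates, read 79.95 and 71.16 in the saline arrays, against 327.6, 352.8 and 200.6 in the IL-13 arrays, with a difference of 1.92 (SE 0.28, adjusted p 0.183). The saline values were close to the floor of 55.3, but all 3 IL-13 arrays lay far above them. Both saline values were under the filter intensity of 210, so Ddr2 entered the test through IL-13 arrays alone. The same held for Cd44, at 117.3 and 207.1 in the saline arrays. Cd44 differed by 0.48 (SE 0.26) and Sdc1 by 0.40 (SE 0.27). Matrix proteases and their inhibitors had a median of 0.36 (8 tested, 5 higher and 3 lower), with 0.17 in the pair at 6 and 0.02 in the pair at 48. The membrane protease gene Mmp14 differed by 0.61 (SE 0.27), the macrophage elastase gene Mmp12 by 0.39 (SE 1.16) and the cathepsin gene Ctsk by 0.37 (SE 0.17). Mmp12 read 166.4 and 284 in the saline arrays, against 143.9, 1669 and 96.75 in the IL-13 arrays. Its positive value came from IL-13 18, and it was lower in both pairs (-0.21 at 6 and -1.55 at 48).

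Markers of the cells that make matrix were read beside these genes. Fibroblast markers had a median difference of 0.49 (11 tested, 9 higher and 2 lower, 6 without overlap). It was 0.62 in the pair at 6 and 0.18 in the pair at 48. Their summed intensity was 19220 and 21585 in the saline arrays, against 17882, 22541 and 18903 in the IL-13 arrays. The 2 lower markers, Gpx3 and Thy1, make up much of this sum. Gpx3, the brightest, read 8144 and 5978 in the saline arrays, against 5039, 6959 and 4630 in the IL-13 arrays (-0.36, SE 0.25). Thy1 read 4063 and 4519, against 1556, 2633 and 1845. Tcf21, a transcription factor of lung fibroblasts, differed by 0.94, Cd34 by 0.74 and Thy1, which thymocytes also express, by -1.13. Tcf21 read 175.1 and 189.1 in the saline arrays, both under the filter intensity of 210, and entered the test through IL-13 arrays alone. The same held for Vim (0.91, SE 0.22), at 133.8 and 96.58 in the saline arrays. Tcf21 and Vim are both counted among the 9 higher and the 6 without overlap. Fgf10 was below the floor on all 5 arrays. Smooth muscle markers had a median of 0.15 (9 tested, 8 higher and 1 lower), with Acta2 at 0.06 and Tagln at 0.12. In the pairs their median was 0.15 at 6 and -0.04 at 48. Sums were 36181 and 34561 in the saline arrays, against 41050, 41724 and 35501 in the IL-13 arrays. Cartilage markers had a median of 0.10 (8 tested), mesothelial markers 0.02 (3 tested) and macrophage markers 0.06 (5 tested). In the pairs at 6 and 48 these medians were 0.41 and -0.01, 0.29 and 0.32, and -0.20 and -0.09. The part of these cell types in the matrix genes' differences was not tested.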

How the data were processed

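RNA was measured on 5 Affymetrix mouse arrays. The authors deposited 1 intensity per probe set on a linear scale (12488 probe sets); the labels name no software or background correction, and the 2% trimmed mean of the deposited values lies between 800.39 and 800.47 on every array. The 66 control probe sets were left out, leaving 12422, of which 10833 have 1 gene symbol, 396 several and 1193 none. Symbols were updated through the gene number for 10817.

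Each array was multiplied so that the 2% trimmed means were equal, 55.3 (the 20th percentile over all arrays) replaced anything lower, and values were put on a log2 scale. A probe set was tested if it exceeded the pooled 40th percentile (210) on at least 2 arrays, which 7811 did. Printed intensities are as deposited. IL-13 was compared with saline in limma 3.58.1 (lmFit, eBayes; R 4.3.3) (3 residual and 3.46 prior degrees of freedom), two-sided, Benjamini-Hochberg adjusted over all tested probe sets, with 0.05 as threshold; standard errors are moderated. The fit was tested on simulated data. Counts over genes use 1 probe set per gene.

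All 35 members are accounted for. Full values are given at least for members without overlap of arrays, at least 2-fold apart in a pair or between saline arrays, or whose probe sets disagree; the 3 largest differences are named in each pathway list. Members, lists and rules were chosen with earlier results of these data known. Alternatives were other scalings, floors, filters, probe set choices and limma settings, title number as a replicate block, and each array left out. Promoters are from RefSeq (GRCm38.p6, 23 of 35 members matched; 1 start per gene). The number of arrays limits precision. Figures used matplotlib 3.10.9.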

Additional observations from a re-analysis of the deposited data

Results flagged for a closer look

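In 9 members the pairs of equal title number differed in sign, which was not tested, since each pair holds 1 array per treatment. On the log2 scale, at 6 and at 48, Tnc differed by 0.89 and -0.22, Lox by 0.58 and -0.53, Fn1 by 0.38 and -0.44, and Mfap5 by -0.53 and 0.14. The rest were small: Fbln2 (-0.19 and 0.21), Bgn (-0.13 and 0.24), Ccn2 (0.13 and -0.20), Col18a1 (0.09 and -0.15) and Col4a1 (-0.01 and 0.03). For Tnc and Lox, the saline arrays alone differed by 1.28 and 1.63.

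Probe sets that were not used in the counts of members also read higher on all 3 IL-13 arrays than on both saline arrays. They were 1 each of Col6a1 (0.85 on the log2 scale), Col5a1 (0.49), Fbln1 (0.41), Bgn (0.39), Col1a1 (0.34) and Col18a1 (0.26, under the filter), and 2 of Col3a1 (0.82 and 0.38). The probe sets used for Col6a1, Bgn, Col1a1 and Col18a1 had overlapping arrays. The remaining probe sets of Col18a1 also overlapped, with differences of 0.13, -0.41 and -0.58, the last under the filter.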

How the results depend on the processing

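No member passed limma's adjusted threshold under any alternative run, for which the lowest adjusted p of a named member was 0.157 (Col3a1 without saline 48). With title number as a replicate block over 4 arrays, the members' median was 0.30 and 0 members passed, against 0 without it; the arrays share only a number. Across the other scalings, floors, filters and probe set choices the median lay between 0.31 and 0.35. Leaving out 1 array gave 0 to 0 members called, a median from 0.26 (without saline 6) to 0.45 (without saline 48), 15 to 21 members with all IL-13 arrays above saline (18.7% to 37.4% of genes; the 21 and the 37.4% both without saline 48) and 0 to 4 with all below (15.4% to 27.3% of genes; 4 without saline 6, 2 without IL-13 48, 1 without saline 48). With a fold of 2 in place of 1.5, 1 member was apart in the pair at 6 and 0 in the pair at 48, fewer by construction. Of the 30 tested members, 21 kept their sign under every alternative run and 9 did not. When 1 array was left out, Lox ranged from -0.62 to 1.01, Tnc from -0.37 to 0.91, Col18a1 from -0.39 to 0.34, Col1a1 from -0.21 to 0.24, Fbln2 from -0.14 to 0.30, Mfap5 from -0.26 to 0.06, Fn1 from -0.11 to 0.20, Ccn2 from -0.04 to 0.23 and Col4a1 from 0.00 to 0.16. Under the replicate block Fn1 was -0.03 and Ccn2 -0.04. Turns came without saline 6 for Lox, Tnc, Fn1 and Col4a1, and without saline 48 for Col1a1, Col18a1 and Fbln2. They came without IL-13 18 for Fn1 and Ccn2, without IL-13 48 for Col1a1, and without IL-13 6 for Col1a1, Col18a1, Fn1 and Mfap5. The cause was not tested. No tested member had a value under the floor.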
